A study of Mus musculus with 8 samples.

Results

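The unfolded protein response and integrated stress response were followed through 10 genes, Atf3, Atf4, Ddit3, Trib3, Chac1, Asns, Hspa5, Xbp1, Herpud1 and Hsp90b1, chosen by name from the 32285 genes of a single-nucleus RNA-seq table. Nuclei came from the brain hemispheres of C57BL6/J mice at 6 months of age, with the olfactory bulb and cerebellum removed, and 2 libraries were made for each of 4 genotypes. WT mice carried neither allele, Cnp-/- mice lacked the myelin protein CNP constitutively, 5xFAD mice carried transgenes of mutant human amyloid precursor protein and presenilin under the neuronal Thy1 promoter, and Cnp-/- 5xFAD mice combined both. Cnp loss was compared with intact Cnp over 4 against 4 libraries, and 5xFAD with its absence over 4 against 4 libraries, in neurons, mature oligodendrocytes (MOL), astrocytes and microglia. By the study's general statement on its single-cell work each replicate pooled a pair of animals, which its methods state only for another dataset, and p-values measure the spread between these libraries. The deposited genotypes gave the groups, and Cnp itself stood at 219 to 321 CPM (UMIs of the gene scaled to all UMIs of the profile) in MOL of the 4 libraries with intact Cnp and at 23.1 to 32.8 CPM in the 4 with Cnp loss.

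Proteins that fail to fold in the endoplasmic reticulum (ER) activate the sensors IRE1, PERK and ATF6. IRE1 splices the Xbp1 mRNA, ATF6 and XBP1 raise the transcription of ER chaperones and of the machinery that removes misfolded proteins, and PERK, like other kinases of the integrated stress response, phosphorylates eIF2, which lowers translation in general while the mRNA of the transcription factor ATF4 is translated more. ATF4 and its partner CHOP then drive genes of amino acid supply, redox balance and cell death. Oligodendrocytes make large amounts of membrane protein and are known to be sensitive to both responses. These steps act largely on translation and splicing, which counts of RNA in nuclei do not measure.

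Of the 10 members, Atf4, Ddit3 (CHOP) and Atf3 encode transcription factors of the integrated stress response, and Trib3, Chac1 and Asns are targets of ATF4. Hspa5 (BiP) and Hsp90b1 (GRP94) encode chaperones of the ER lumen, Herpud1 encodes an ER membrane protein of the degradation machinery, and Xbp1 encodes the factor that IRE1 activates. The binding motifs of these factors were looked for in the 250 bases upstream of each member's RefSeq start (build GRCm38.p6, both strands), because Herpud1, the member called for Cnp loss over both amyloid backgrounds, is known as a target of both branches. The window of Herpud1 lay at chr8:94386179-94386428 on the plus strand and is printed 5′ to 3′, with the bases that match a motif in capitals.
Herpud1: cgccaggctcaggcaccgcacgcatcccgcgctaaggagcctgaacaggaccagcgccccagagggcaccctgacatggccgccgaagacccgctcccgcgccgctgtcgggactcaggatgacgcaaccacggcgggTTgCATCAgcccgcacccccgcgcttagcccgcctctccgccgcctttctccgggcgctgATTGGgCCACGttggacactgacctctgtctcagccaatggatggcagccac
The first match in it is the C/EBP-ATF response element (CARE, letters TGATGNAA) on the opposite strand, 112 to 105 bases before the start, and the second is the ER stress response element II (ERSE-II, letters ATTGG and CCACG with 1 base of any kind between them) 52 to 42 bases before the start. ERSE-II was in 10 of 32817 distinct windows of all genes (0.0305%), and Herpud1 was the only member with it. CARE was in 3.45% of all windows and in those of 4 members, and the matches of the other three are printed next, read in the direction of the gene.
Asns, minus strand, 23 to 16 bases before the start, chr6:7693225-7693232: TGATGaAA
Chac1, plus strand, 193 to 186 bases before the start, chr2:119351049-119351056: TTgCATCA
Atf3, minus strand, 110 to 103 bases before the start, chr1:191183436-191183443: TTgCATCA
The ER stress response element ERSE (letters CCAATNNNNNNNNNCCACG) was in 0.113% of all windows and in those of both ER chaperones, again read in the direction of the gene.
Hspa5, plus strand, 65 to 47 bases before the start, chr2:34772025-34772043: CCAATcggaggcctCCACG
Hsp90b1, minus strand, 212 to 194 bases before the start, chr10:86705638-86705656: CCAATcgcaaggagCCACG
Hsp90b1, match on the strand opposite to the gene, 107 to 89 bases before the start, chr10:86705533-86705551: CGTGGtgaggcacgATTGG
The unfolded protein response element (UPRE, letters TGACGTGG) was in 0.564% of all windows and in none of the members'. Among the other genes of these pathways, CARE was in the windows of 10 of 36 ATF4 and CHOP targets (27.8%), and ERSE in those of 8 of 35 ER chaperone and degradation genes (22.9%). Gene spans printed further on are those of GENCODE, whose starts can differ from the RefSeq starts. The matches of Hspa5 and Atf3 lie inside these spans. A match of letters describes the window and says nothing of binding in these nuclei. Herpud1, the ATF4 targets and the ER chaperones were known targets of these factors beforehand, so their matches are no support from these data. The shares over all windows are a description, with no test.

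The table held 61949 nuclei, with 6801 to 8824 nuclei and 68905044 to 82399061 UMIs per library. By the deposited annotation 45141 nuclei were neurons, 5612 MOL, 4810 astrocytes and 2472 microglia, at medians of 9105, 1515, 2636 and 1395 UMIs per nucleus. All 8 neuron, 8 MOL, 8 astrocyte and 10 microglia and macrophage markers were highest in their own cell type. Of 61494 different barcodes, 454 were found in more than 1 library. The WT libraries held few microglia, 217 and 79 nuclei against 166 to 517 in the other libraries. UMIs were summed per library and cell type before any comparison.

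Stress genes were unevenly spread over the cell types, and vascular cells stood highest for 8 of the 10. Endothelial cells had the highest mean level over the 8 libraries for Hspa5 (108 ± 27.3 CPM, SD, n = 8), Hsp90b1 (175 ± 25.9 CPM), Herpud1 (89.4 ± 9.39 CPM), Xbp1 (77.3 ± 11.9 CPM) and Trib3 (6.03 ± 1.94 CPM). For Trib3, every endothelial value, from 2.31 to 8.56 CPM, was above every value of the microglia, the next cell type in the order at 0.456 ± 0.647 CPM. Endothelial cells were above the next type by more than the larger SD for Hspa5, Hsp90b1 and Trib3, whereas for Herpud1 and Xbp1 the gap to pericytes was within it. Pericytes, which were only 260 nuclei, had the highest means of Atf4 (47.8 ± 40.3 CPM), Ddit3 (24.8 ± 18.5 CPM) and Chac1 (1.90 ± 5.38 CPM, from 1 UMI), and none of these was set apart from the next type by its spread. Endothelial Atf4 reached 47.6 ± 12.4 CPM, with 34.4 to 68.3 CPM over the libraries, against 10.0 ± 17.7 CPM in microglia. These levels were compared across cell types as a description, with no test. Beside them, endothelial immediate early genes summed to 1343 to 2191 CPM and cytosolic heat shock genes to 1923 to 2649 CPM. Pericytes stood at 229 to 633 and 538 to 1565 CPM. In neurons, MOL, astrocytes and microglia the 2 sums reached at most 337 and 1089 CPM. Their part in the vascular levels was not tested.

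Asns, the enzyme that makes asparagine from aspartate and glutamine, was the member with its highest mean in neurons. Its 6776 UMIs in neurons gave 9.75 to 14.1 CPM over the 8 libraries (12.1 ± 1.49 CPM), above all 8 endothelial values, which reached 8.66 CPM. Single libraries of other types reached the neuronal range on few UMIs, namely oligodendrocyte precursors (OPC) of 5xFAD replicate 1 (12.3 CPM, 13 UMIs) and pericytes of WT replicate 1 (22.9 CPM, 1 UMI), while 4 of the 8 OPC libraries held 0 UMIs. In MOL it was at 0 UMIs in every library, which allows up to 0.318 CPM over all MOL profiles by counting error alone, and astrocytes and microglia held 5 and 1 UMIs. Atf3 had its highest mean in microglia (14.2 ± 9.77 CPM), with endothelial cells at 5.85 ± 3.14 CPM, a gap within the larger SD. Neurons stood at 0.235 ± 0.0723 CPM and MOL at 0 UMIs. In WT, microglia held 0 Atf3 UMIs and endothelial cells a mean of 2.14 CPM. MOL were lowest of the 8 types for Xbp1 (1.69 ± 2.60 CPM) and Hsp90b1 (31.8 ± 18.5 CPM). For Xbp1 the next type up, astrocytes at 13.9 ± 9.39 CPM, was higher by more than the larger SD, but for Hsp90b1 the gap to neurons at 39.5 ± 8.58 CPM was not. Neurons were lowest for Hspa5 (2.69 ± 2.13 CPM), Herpud1 (16.9 ± 2.47 CPM) and Ddit3 (3.36 ± 0.770 CPM). Their gaps to the next type, MOL for Hspa5 and Herpud1 and OPC for Ddit3, were within the larger SD. In Cnp-/- and Cnp-/- 5xFAD, mean Herpud1 was lower in MOL (13.4 and 3.09 CPM) than in neurons (16.7 and 15.2 CPM). Mean Hspa5 was lower there too, at 0.305 and 0 CPM in MOL against 2.51 and 0.860 CPM in neurons.

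**Figure D1:**
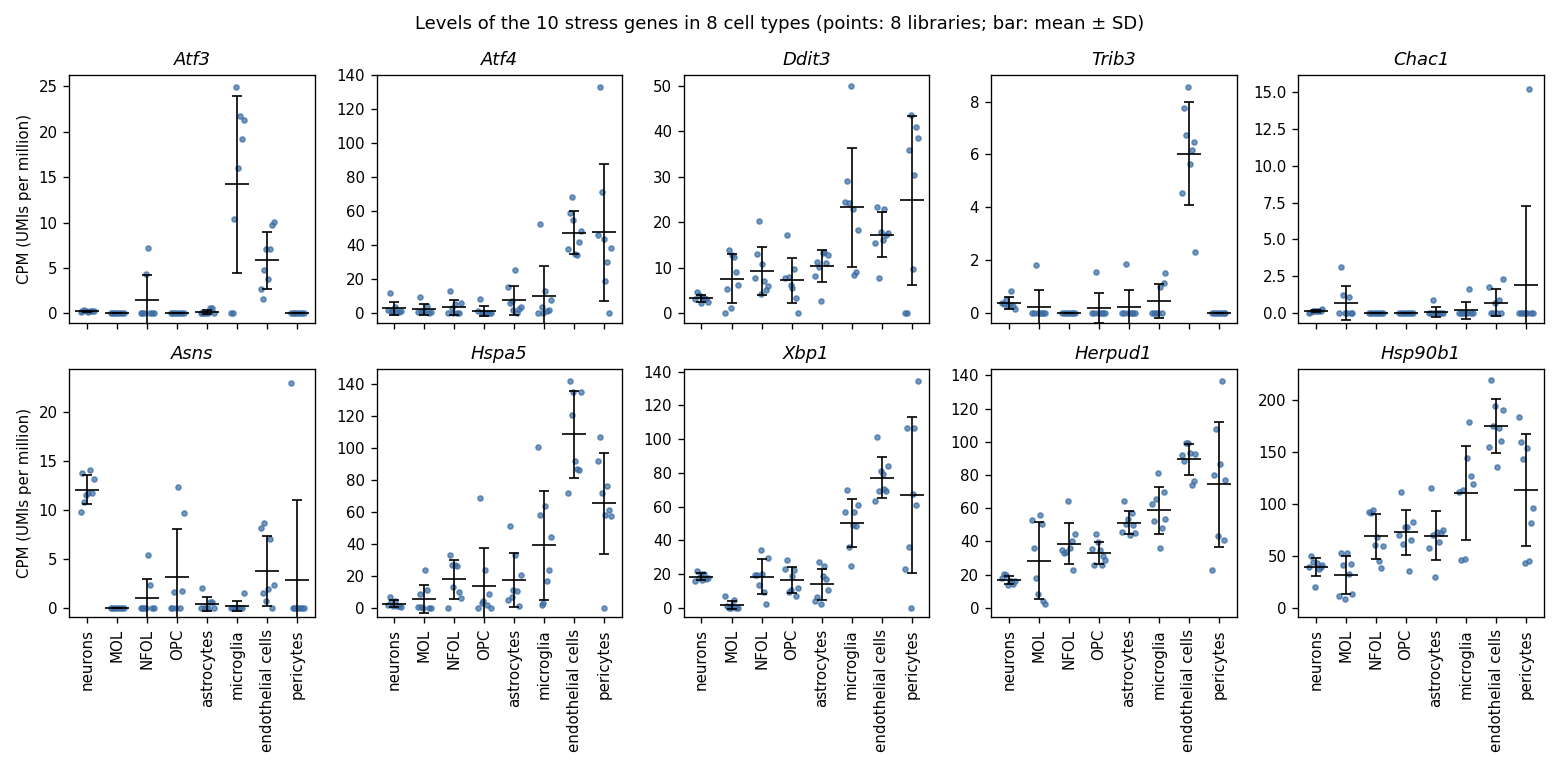
CPM of the 10 genes (y axis, each panel on its own scale) in 8 cell types, with a point per library and a bar for the mean ± SD over 8 libraries. By mean, endothelial cells lead for 5 genes, Asns stands highest in neurons at 12.1 CPM, and Atf3 in microglia at 14.2 CPM. The gap of Atf3 to endothelial cells is within the larger SD.

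Herpud1 was the member that differed most clearly between genotypes, and it did so in MOL. The gene (ENSMUSG00000031770) spans chr8:94386438-94395377 on the plus strand of GRCm38. Its MOL level was 52.7 and 35.9 CPM in the WT libraries (61 and 34 UMIs) and 56.1 and 50.4 CPM in 5xFAD (101 and 45 UMIs). It was 18.3 and 8.54 CPM in Cnp-/- (30 and 7 UMIs) and 4.13 and 2.05 CPM in Cnp-/- 5xFAD (5 and 2 UMIs). All 4 libraries with Cnp loss were thus below all 4 with intact Cnp, and the double mutant libraries were the lowest. Pooled over libraries, 44 UMIs with Cnp loss and 241 UMIs without it gave a level 5.30-fold lower (exact 95% interval for counting error only, 3.83 to 7.49), and 10.8-fold lower without Cnp-/- replicate 1. Averaged over both amyloid backgrounds, Herpud1 fell by 2.79 on the log2 scale (SE 0.41) and passed edgeR's quasi-likelihood test (adjusted p = 0.0326), against a median of −0.03 over all genes tested in MOL. Of 8761 genes tested there, 67 were called (39 higher and 28 lower), a background of 0.765%, and Herpud1 was 1 of the 4 members that passed the filter on low counts. The call was marginal: it held without Cnp-/- replicate 1 and was lost without any other single library. The log2 fold changes were −2.60 to −3.11 over all 8 omissions.

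The share of MOL nuclei with a Herpud1 UMI followed the same order. It was 8.62% and 7.43% in WT, 9.33% and 7.64% in 5xFAD, 3.11% and 0.922% in Cnp-/- and 0.736% and 0.290% in Cnp-/- 5xFAD. With nuclei thinned to a common depth of 1000 UMIs, at the cost of 1081 of 5612 MOL nuclei, the highest share with Cnp loss was 1.58% and the lowest with intact Cnp was 3.71%. Taken within each amyloid background, the log2 fold change was −1.62 ± 0.54 (SE) for Cnp-/- against WT (adjusted p = 0.422 by edgeR) and −3.97 ± 0.62 for Cnp-/- 5xFAD against 5xFAD (adjusted p = 0.176), and neither passed the threshold with 2 libraries a side. With 5xFAD, Herpud1 in MOL had a log2 fold change of 0.24 ± 0.51 without Cnp loss (adjusted p = 1.00 by edgeR) and −2.11 ± 0.62 with it (unadjusted p = 0.00978, adjusted p = 1.00), and their average of −0.94 ± 0.40 (unadjusted p = 0.0477, adjusted p = 1.00) joins estimates of opposite sign. The interaction of both alleles was −2.35 ± 0.80 (unadjusted p = 0.0197, adjusted p = 1.00 by edgeR), so a stronger decrease on the amyloid background was not shown. Herpud1 overlaps the antisense gene Gm15890 on the opposite strand by 535 bases at its 5′ end, and whether counting used strand is not given in the sources used here.

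Herpud1 differed in its response between cell types. In neurons it was 18.1 and 20.7 CPM in WT, 16.2 and 16.4 CPM in 5xFAD, 19.8 and 13.6 CPM in Cnp-/- and 14.4 and 16.1 CPM in Cnp-/- 5xFAD. Both WT libraries were above all 4 with 5xFAD and the Cnp-/- pair overlapped each other genotype, so libraries with and without Cnp loss overlapped (log2 fold change −0.09 ± 0.13, adjusted p = 0.898 by edgeR). In astrocytes it ranged from 43.9 to 64.4 CPM (−0.08 ± 0.16, adjusted p = 0.992). Microglia stood at 65.7 and 81.1 CPM in Cnp-/-, 70.0 and 53.3 CPM in Cnp-/- 5xFAD, 62.4 and 52.4 CPM in WT and 35.9 and 48.4 CPM in 5xFAD, a difference in the opposite direction that did not pass the threshold (0.47 ± 0.26, adjusted p = 0.546). In 1 model of 32 profiles with the library as a block, the effect of Cnp loss on Herpud1 was lower in MOL than in neurons by −2.72 ± 0.40 (adjusted p = 0.00395 by edgeR), than in astrocytes by −2.73 ± 0.40 (adjusted p = 0.00476) and than in microglia by −3.36 ± 0.42 (adjusted p = 0.00192). These 3 differences share the MOL profiles. The model takes 1 measure of spread (dispersion) per gene over all cell types. The spread between libraries (biological coefficient of variation) was 0.466 in MOL and 0.207 in neurons. The SE of the difference from neurons was no larger than that of the MOL effect alone (0.40 against 0.41), so these p-values may be too small. Of 15326 genes tested, 141 (0.92%), 102 (0.666%) and 111 (0.724%) were called in the same comparisons, and Herpud1 was the only one of 8 members tested, of which Asns and Atf3 were at 0 UMIs in MOL, that was called in each. Without 5xFAD replicate 1 the differences from neurons and astrocytes lost their call (adjusted p = 0.0559 and 0.0659 by edgeR), as did that from astrocytes without Cnp-/- 5xFAD replicate 2 (adjusted p = 0.0522), and the difference from microglia kept it without any single library.

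Of 9 other measures taken in MOL, cytosolic heat shock genes were the one whose ranges with and without Cnp loss did not overlap. Summed over the list, they stood at 567 to 779 CPM with Cnp loss and at 876 to 1089 CPM without it, and in neurons the same sum did not overlap either, at 644 to 699.9 CPM against 700.2 to 733 CPM. Median UMIs per MOL nucleus were 1108 to 1621 against 1553 to 2020, ribosomal protein genes 889 to 1273 against 1113 to 1631 CPM, mitochondrial transcripts 4.26 to 276 against 12.8 to 187 CPM, and neuron markers 1.03 to 35.6 against 10.1 to 161 CPM, and these 4 ranges overlapped. Their part in the difference of Herpud1 was not tested. With only nuclei of at least 1000 UMIs, Herpud1 still fell by 2.69 on the log2 scale (adjusted p = 0.0474 by edgeR). In newly formed oligodendrocytes (NFOL), 465 nuclei in all, Herpud1 stood at 22.9 to 64.6 CPM with Cnp loss and at 32.8 to 40.5 CPM without it. With their UMIs added to MOL the log2 fold change was −1.52 (adjusted p = 0.0297 by edgeR). Astrocyte markers summed to 4676 to 10977 CPM in NFOL, against 218 to 437 CPM in MOL, and their part in the NFOL values was not tested.

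**Figure D2:**
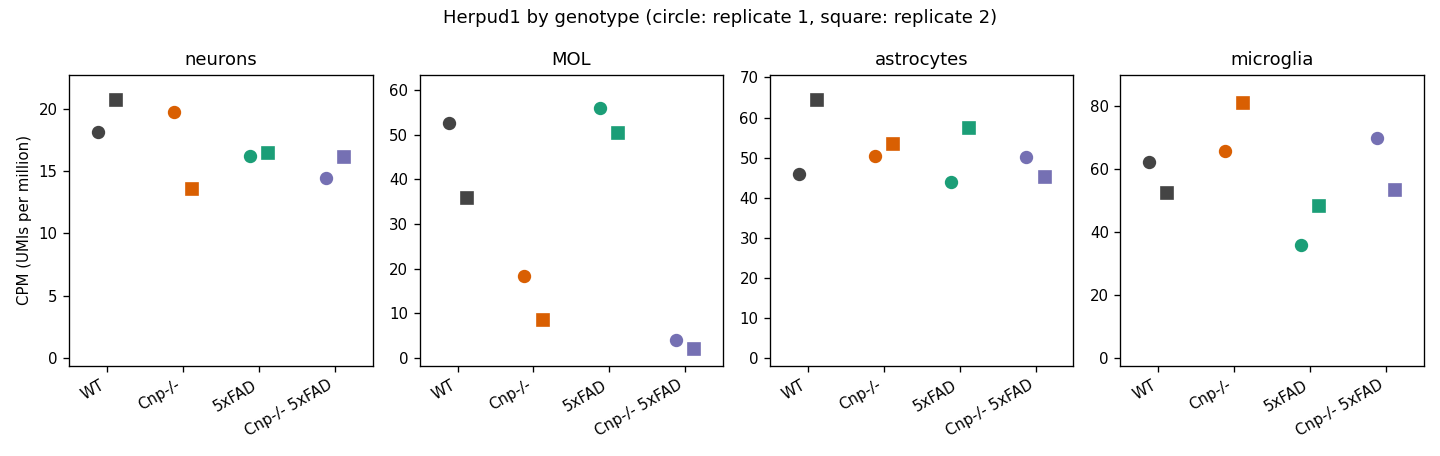
Herpud1 in CPM (y axis) by genotype (x axis) in neurons, MOL, astrocytes and microglia, with a circle for replicate 1 and a square for replicate 2 of each genotype. In MOL the 4 libraries with Cnp loss sit between 2.05 and 18.3 CPM and the other four between 35.9 and 56.1 CPM, whereas libraries with and without Cnp loss overlap in neurons, astrocytes and microglia.

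Hspa5 (ENSMUSG00000026864, chr2:34771970-34777547, plus strand), the main chaperone of the ER lumen, varied strongly between libraries of the 4 cell types compared, and in each of them the highest library was one with intact Cnp. In endothelial cells, where its mean was highest, it stood at 71.8 and 141 CPM in WT, 120 and 135 CPM in Cnp-/-, 91.5 and 86.6 CPM in 5xFAD and 86.3 and 135 CPM in Cnp-/- 5xFAD, with and without Cnp loss overlapping. In MOL it was 0.863 and 8.46 CPM in WT and 23.9 and 11.2 CPM in 5xFAD, against 0.609 and 0 CPM in Cnp-/- and 0 CPM in both Cnp-/- 5xFAD libraries. Thus 1 UMI was counted with Cnp loss and 62 UMIs without it, 43 of them in 5xFAD replicate 1, a ratio of 60.0-fold lower with an exact 95% counting interval of 10.4 to 2408. Without 5xFAD replicate 1 the ratio was 29.4-fold, and without Cnp-/- replicate 1, which held the 1 UMI, the level was at least 12.9-fold lower. The edgeR test did not call the difference (adjusted p = 0.198) and DESeq2 did (adjusted p = 0.0249), and their fitted fold changes are not given because they rest on a genotype at 0.

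In microglia, Hspa5 was 100.4 and 58.2 CPM in WT (37 and 10 UMIs) and 1.73 and 3.12 CPM in Cnp-/- (1 UMI each). It was 63.9 and 16.7 CPM in 5xFAD and 23.7 and 44.2 CPM in Cnp-/- 5xFAD. The Cnp-/- libraries were therefore the lowest and did not overlap with any other genotype. Cnp-/- against WT gave a log2 fold change of −5.01 ± 0.96 (adjusted p = 0.0383 by edgeR), where 150 of 9621 genes (1.56%) were called. This contrast within 1 amyloid background was not among the 12 comparisons of the design. Its values without single libraries or without macrophages are not given. On the amyloid background, Cnp-/- 5xFAD against 5xFAD gave −0.29 ± 0.62 (adjusted p = 0.999 by edgeR). Averaged over both backgrounds the fold change of −2.65 ± 0.59 missed the threshold (adjusted p = 0.0782). The interaction was 4.73 ± 1.18 with an unadjusted p of 0.00265 and an adjusted p of 0.369 by edgeR, so the effects on the 2 backgrounds were not shown to differ. With 5xFAD the log2 fold change was −0.98 ± 0.63 without Cnp loss (adjusted p = 0.654 by edgeR) and 3.75 ± 0.98 with it (unadjusted p = 0.00363, adjusted p = 0.698), so the average over both Cnp backgrounds, 1.39 ± 0.61 (unadjusted p = 0.0464, adjusted p = 0.522), joins estimates of opposite sign. Beside these values, MOL markers in microglia summed to 2814 to 6028 CPM with Cnp loss and 1088 to 2578 CPM without it, immediate early genes to 168 to 256 against 290 to 337 CPM, and the nuclear RNA Malat1 to 27392 to 40070 against 19662 to 26390 CPM, none of which overlapped, and their part was not tested.

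The deposited subpopulations of microglia give the place of the Hspa5 counts as a description. In homeostatic microglia, WT replicate 1 held 31 UMIs (150 CPM), WT replicate 2 held 1 UMI (12.7 CPM), and both Cnp-/- libraries were at 0 UMIs. In macrophages, the WT libraries held 4 and 6 UMIs (70.7 and 149 CPM), and both Cnp-/- libraries were at 0 UMIs. Pooled over libraries, macrophages stood at 94.5 CPM from 39 UMIs in 205 nuclei, with 41.4 CPM in homeostatic microglia, 41.2 CPM in the amyloid-associated subpopulation (AD_DAM), 19.6 CPM in microglia enriched in myelin transcripts (MyTE) and 18.8 CPM in the myelin-associated one (Myelin_DAM). These pooled levels mix genotypes in unequal shares and give no order of the subpopulations. Macrophages were 15.6% and 27.1% of the annotated microglia in WT against 3.68% and 8.76% in Cnp-/-, and of the 248 Myelin_DAM nuclei 83 and 36 came from Cnp-/-, where they held 0 Hspa5 UMIs, against 20.7 and 53.1 CPM in Cnp-/- 5xFAD. The alternative without macrophages also left out nuclei with no subpopulation, as 2291 of the 2472 microglia had one. In it, the fold change of Hspa5 with Cnp loss over both backgrounds was −3.05 (adjusted p = 0.140 by edgeR).

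In neurons, Hspa5 ranged from 0.765 to 6.70 CPM and fell short of the threshold (−1.23 ± 0.56 with Cnp loss, adjusted p = 0.626). In astrocytes it ranged from 1.22 to 51.1 CPM (−1.34 ± 0.94, adjusted p = 0.983 by edgeR). The spread lay within genotypes as much as between them: replicates of 1 genotype differed by a median of 3.13-fold in neurons and 6.57-fold in astrocytes, where the WT pair stood at 5.10 and 51.1 CPM. WT replicate 2 and 5xFAD replicate 1 were the highest libraries for Hspa5 in both cell types.

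Atf4 (ENSMUSG00000042406, chr15:80255184-80257541, plus strand), which encodes the central factor of the integrated stress response, was likewise uneven between libraries. Its neuronal level was 2.08 and 12.2 CPM in WT, 3.68 and 1.02 CPM in 5xFAD, 1.65 and 0.717 CPM in Cnp-/- and 0.887 and 1.30 CPM in Cnp-/- 5xFAD. WT replicate 2, with 859 of the 1652 neuronal UMIs, stood far above all others, 5xFAD replicate 1 was second as it was for Hspa5, and the remaining libraries overlapped. The log2 fold change with Cnp loss was −1.77 ± 0.65 (unadjusted p = 0.0282, adjusted p = 0.580 by edgeR), and it was −0.90 without WT replicate 2. Replicates of 1 genotype differed for Atf4 in neurons by a median of 2.96-fold, against 1.13-fold for Herpud1, 1.16-fold for Asns and 1.17-fold for Xbp1 in the same nuclei. In microglia, 9 of the 32 Atf4 UMIs came from WT replicate 2 and 13 from 5xFAD replicate 1. In astrocytes the order differed, with 25.3 CPM in 5xFAD replicate 1, 15.3 CPM in WT replicate 1, 5.98 CPM in WT replicate 2 and 0 CPM in 5xFAD replicate 2 (log2 fold change with Cnp loss −1.63 ± 1.12, adjusted p = 0.983 by edgeR). MOL held 20 Atf4 UMIs, 3 with Cnp loss and 17 without it (exact permutation test, two-sided, p = 0.0857).

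**Figure D3:**
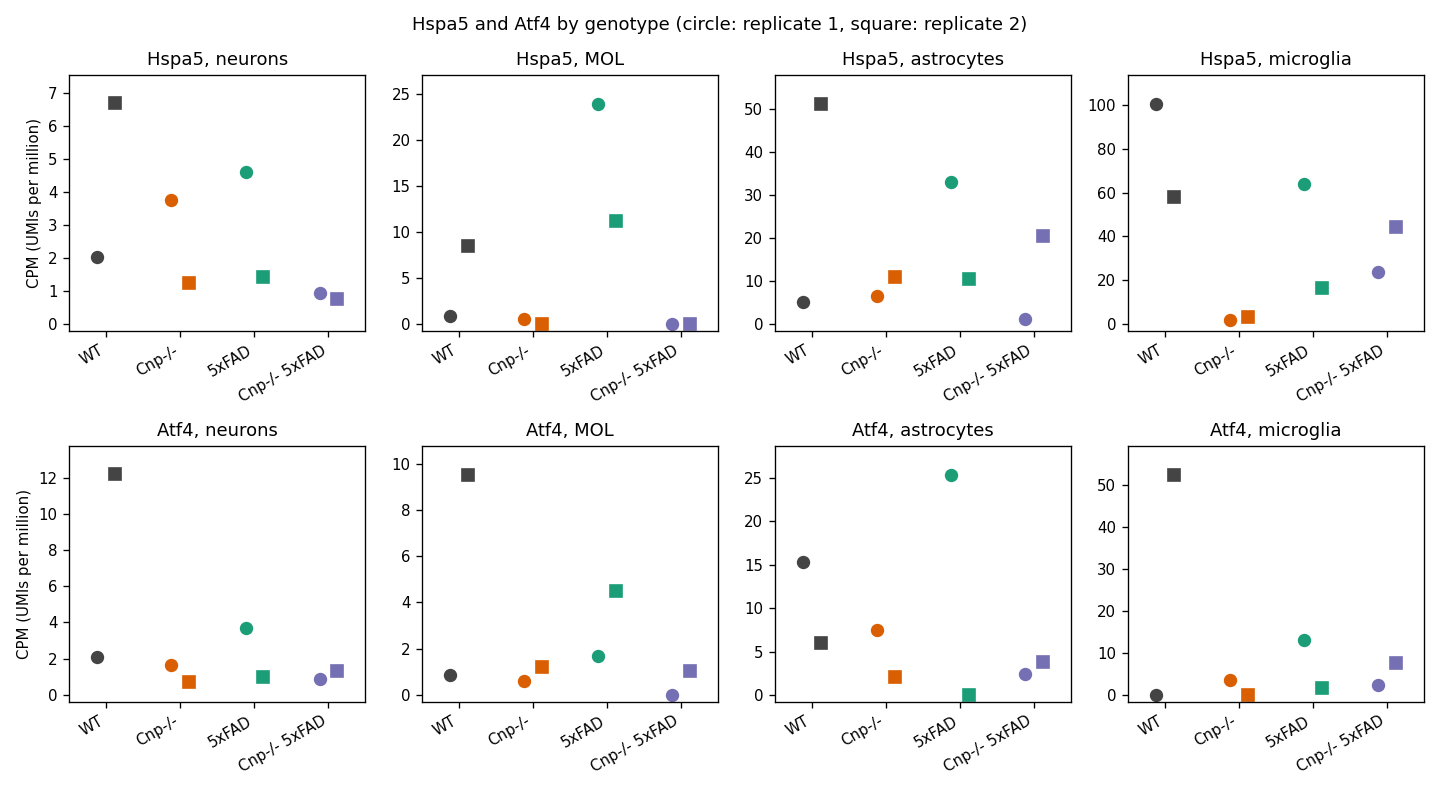
CPM of Hspa5 (top row) and Atf4 (bottom row) on the y axis by genotype in neurons, MOL, astrocytes and microglia, with a circle for replicate 1 and a square for replicate 2. WT replicate 2 stands at 12.2 CPM of Atf4 in neurons and 51.1 CPM of Hspa5 in astrocytes, far from WT replicate 1 at 2.08 and 5.10 CPM.

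Xbp1 (ENSMUSG00000020484, chr11:5520659-5525893, plus strand) was at 0 UMIs in MOL of all 4 libraries with Cnp loss. With intact Cnp it was at 6.91 and 1.06 CPM in WT (8 and 1 UMIs) and 1.11 and 4.48 CPM in 5xFAD (2 and 4 UMIs). The pooled level was at least 4.84-fold lower with Cnp loss, taking 3 UMIs over the 4 libraries as the limit that a count of 0 allows. It was at least 2.98-fold without WT replicate 1, which held 8 of the 15 UMIs, and at least 3.13-fold without Cnp-/- replicate 1. Xbp1 did not pass the filter on low counts in MOL, and the exact permutation test over 4 against 4 libraries gave two-sided p = 0.0286, the smallest value that its 70 relabellings allow. Of the 24 such tests on members removed by the filter, this was the only one with p under 0.05, with no adjustment for the number of tests. Without any 1 of the 4 libraries with Cnp loss the exact permutation p was 0.0857, and without any 1 of the others it stayed 0.0286. In microglia, Xbp1 was 36.3 and 24.9 CPM in Cnp-/- against 57.0 and 69.8 CPM in WT, with 48.9 and 56.7 CPM in 5xFAD and 48.5 and 61.0 CPM in Cnp-/- 5xFAD. The Cnp-/- pair was lowest, and the log2 fold change against WT was −0.95 ± 0.42 (unadjusted p = 0.0485, adjusted p = 0.365 by edgeR). Neuronal Xbp1 was steady at 15.9 to 21.7 CPM (0.05 ± 0.11 with Cnp loss, adjusted p = 0.945), and in astrocytes it ranged from 2.06 to 27.1 CPM (0.38 ± 0.66, adjusted p = 0.992). In OPC, mean Xbp1 was 25.9 CPM in WT and 20.8 CPM in 5xFAD (25 and 34 UMIs). It was 9.97 CPM in Cnp-/- and 9.23 CPM in Cnp-/- 5xFAD (11 and 10 UMIs), and OPC were not tested. Counts of the 3′ end do not separate the spliced from the unspliced Xbp1 mRNA.

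Hsp90b1 (ENSMUSG00000020048, chr10:86690209-86705509, minus strand), the HSP90 of the ER lumen, did not follow Herpud1 in MOL. Its MOL level was 11.2 and 52.8 CPM in WT, 41.4 and 8.54 CPM in Cnp-/-, 52.7 and 32.5 CPM in 5xFAD and 42.2 and 13.3 CPM in Cnp-/- 5xFAD, so replicates of 1 genotype differed by a median of 3.94-fold and all genotypes overlapped (log2 fold change with Cnp loss −0.41 ± 0.67, adjusted p = 0.859 by edgeR). In microglia it was highest in 5xFAD, at 145 and 179 CPM, followed by Cnp-/- 5xFAD at 128 and 119 CPM, with 111 and 46.6 CPM in WT and 114 and 46.8 CPM in Cnp-/-. Every library with 5xFAD was above every library without it, and the log2 fold change was 0.72 ± 0.30 (unadjusted p = 0.0403, adjusted p = 0.501 by edgeR), where 22 of 9621 genes (0.229%) were called. Beside the 5xFAD values in microglia, ribosomal protein genes summed to 2309 to 3074 CPM with 5xFAD and 1907 to 2171 CPM without it, and AD_DAM made up 29.7% to 37.4% of the annotated nuclei with 5xFAD and 0% to 5.15% without it. Neither pair of ranges overlapped, and their part in the 5xFAD differences of Hsp90b1, Atf3 and Ddit3 was not tested. Neurons held 20.4 to 49.6 CPM and astrocytes 30.2 to 116 CPM, and Cnp-/- replicate 2 was the lowest library in both. Hsp90b1 overlaps the pseudogene 1810014B01Rik on the opposite strand by 4598 bases.

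Atf3 (ENSMUSG00000026628, chr1:191170296-191218039, minus strand), a transcription factor that cells induce under many stresses, was at 0 UMIs in microglia of both WT libraries and was counted in all 6 mutant ones. The values were 10.4 and 24.9 CPM in Cnp-/- (6 and 8 UMIs), 16.0 and 21.7 CPM in 5xFAD (16 and 13 UMIs) and 19.2 and 21.3 CPM in Cnp-/- 5xFAD (17 and 14 UMIs). The mutant libraries together held 74 UMIs, or 18.3 CPM, and WT held 0 of 540491 UMIs, which allows up to 5.55 CPM, so the mutant level was at least 3.30-fold higher with 3 UMIs over both WT libraries as the limit. Without WT replicate 1 the bound was 1.05-fold. This comparison of all mutants with WT was chosen after the values had been seen and was not tested. The contrasts of the design did not call Atf3 in microglia, either for Cnp loss (unadjusted p = 0.0126, adjusted p = 0.243 by edgeR) or for 5xFAD (unadjusted p = 0.0103, adjusted p = 0.341) or their interaction (unadjusted p = 0.0162, adjusted p = 0.550), and their fitted fold changes rest on a genotype at 0.

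By deposited subpopulation, the Atf3 UMIs of microglia lay mostly outside the homeostatic nuclei. Homeostatic microglia held 3 UMIs in 982 nuclei (2.43 CPM), MyTE 12 UMIs in 270 nuclei (13.8 CPM), AD_DAM 30 UMIs in 586 nuclei (34.3 CPM), Myelin_DAM 21 UMIs in 248 nuclei (65.7 CPM) and macrophages 2 UMIs in 205 nuclei (4.85 CPM). Within Myelin_DAM the level was 29.2 and 63.6 CPM in Cnp-/- (3 UMIs each) and 72.5 and 142 CPM in Cnp-/- 5xFAD (7 and 8 UMIs). Within AD_DAM it was 25.0 and 55.8 CPM in 5xFAD and 29.1 and 27.6 CPM in Cnp-/- 5xFAD. The WT libraries contributed 1 nucleus to AD_DAM and 1 to Myelin_DAM, so the makeup of the microglia and the Atf3 level per library cannot be told apart here. The subpopulations were found by clustering the same counts, and these levels are given with no test. The pooled Atf3 levels mix genotypes in unequal shares and give no order of the subpopulations. In MyTE, 7 of the 12 UMIs came from 5xFAD replicate 1 and 0 from 5xFAD replicate 2.

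**Figure D4:**
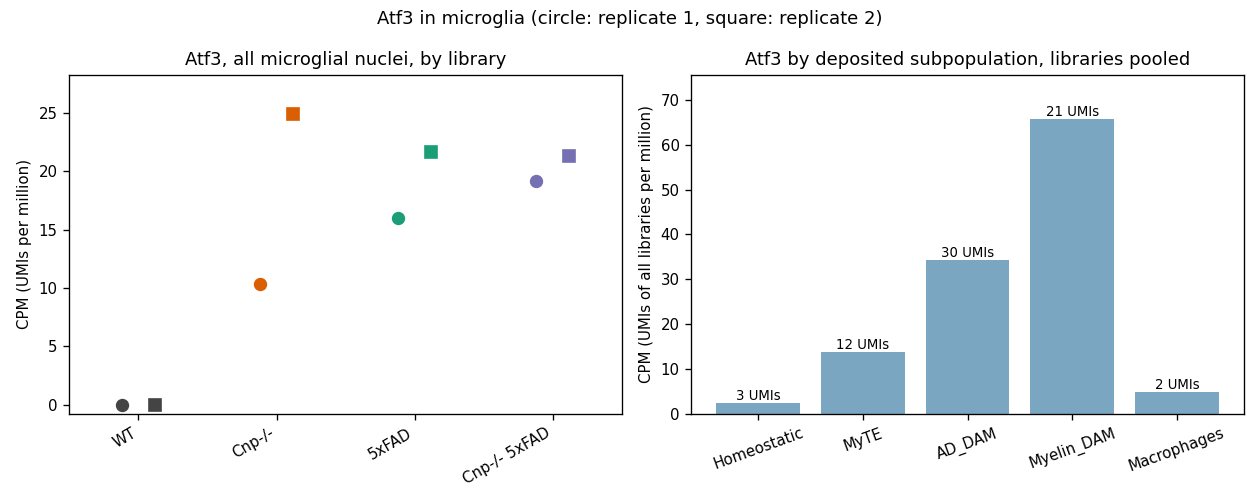
Left, Atf3 in CPM of all microglial nuclei by genotype, with a circle for replicate 1 and a square for replicate 2. Right, pooled CPM by deposited subpopulation as bars from 0 with the UMIs above them, from 2.43 CPM in homeostatic microglia to 65.7 CPM in Myelin_DAM. The pooled bars mix genotypes in unequal shares.

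Ddit3, which encodes CHOP, showed no genotype difference past the threshold in any of the 4 cell types. Neurons held 2.35 to 4.75 CPM (log2 fold change with Cnp loss −0.25 ± 0.21, adjusted p = 0.811 by edgeR) and astrocytes 2.74 to 13.4 CPM (−0.39 ± 0.44, adjusted p = 0.984). In MOL it was 0 and 5.28 CPM in WT, 12.8 and 12.3 CPM in 5xFAD, 9.09 and 6.16 CPM in Cnp-/- 5xFAD, and 1.22 CPM in Cnp-/- replicate 2 (1 UMI), with Cnp-/- replicate 1 the highest of the 8 libraries (23 UMIs). The WT pair was below all 4 libraries with 5xFAD, and Cnp-/- overlapped each other genotype (0.50 ± 1.07 with Cnp loss, adjusted p = 0.897 by edgeR). This average joins estimates of opposite sign, 1.63 ± 1.59 without 5xFAD and −0.64 ± 1.48 with it. Microglial Ddit3 was 24.4 and 29.1 CPM in WT, 24.2 and 49.9 CPM in Cnp-/-, 23.0 and 8.34 CPM in 5xFAD and 9.03 and 18.3 CPM in Cnp-/- 5xFAD. Each library with 5xFAD was below each without it, at a log2 fold change of −1.07 ± 0.52 (unadjusted p = 0.0664, adjusted p = 0.586 by edgeR). The annotation lists Ddit3 as 2 genes, and the row of the second was at 0 UMIs throughout.

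Of the 3 ATF4 targets, Trib3 held 51 UMIs in endothelial cells, with UMIs in all 8 libraries, and Asns 33, while in MOL, astrocytes and microglia each target held at most 6 UMIs. Asns did not differ in neurons, with a log2 fold change of 0.01 ± 0.13 for Cnp loss (adjusted p = 0.995 by edgeR) and 0.17 ± 0.13 for 5xFAD (adjusted p = 0.661). Trib3, a pseudokinase that feeds back on ATF4, was at 0.161 to 0.851 CPM in neurons from 218 UMIs (−0.64 ± 0.39 with Cnp loss, adjusted p = 0.730). Chac1, which degrades glutathione, was at 0 to 0.322 CPM in neurons from 89 UMIs (1.24 ± 0.62 with Cnp loss, adjusted p = 0.657). Both WT libraries, at 0 and 0.0850 CPM of Chac1 (0 and 6 UMIs), were below all 6 mutant ones, at 0.152 to 0.322 CPM. The mutants together were 4.69-fold above WT (exact 95% counting interval 2.06 to 13.1), and 2.33-fold above it without WT replicate 1. This comparison too was chosen after the values had been seen and was not tested. Neuronal Atf3 was 0.195 and 0.227 CPM in WT, 0.350 and 0.218 CPM in Cnp-/-, 0.106 and 0.304 CPM in 5xFAD and 0.236 and 0.241 CPM in Cnp-/- 5xFAD, with the last pair above WT and every other pair of genotypes overlapping (log2 fold change with Cnp loss 0.40 ± 0.37, adjusted p = 0.831 by edgeR).

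Across the design, 1 member was called in 1 of 12 comparisons within cell types. Outside these 12, Hspa5 was called in microglia for Cnp-/- against WT. Contrasts within 1 background were fitted in every cell type compared, each adjusted by itself, and they called no other member. For Cnp loss, edgeR called 4 of 21584 genes in neurons (0.0185%), 0 of 11809 in astrocytes (0%) and 87 of 9621 in microglia (0.904%), none of them among the 10, 6 and 6 members tested. For 5xFAD it called 0 genes in neurons (0%), 0 in MOL (0%) and 0 in astrocytes (0%), with 2542, 326 and 574 genes at an unadjusted p under 0.05 and 501, 6 and 2 called by DESeq2. The interaction gave 0 calls in neurons (0%), MOL (0%), astrocytes (0%) and microglia (0%), with 1066, 299, 493 and 715 genes at an unadjusted p under 0.05 and 58, 10, 9 and 21 called by DESeq2. For Cnp loss in astrocytes, 641 genes had an unadjusted p under 0.05 and DESeq2 called 7. The effect of 5xFAD differed between neurons and MOL for 1 of 15326 genes (0.00652%), between neurons and astrocytes for 0 (0%, with 626 at an unadjusted p under 0.05) and between neurons and microglia for 14 (0.0913%), and for no member.

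In neurons, where all 10 members passed the filter, their median log2 fold change was −0.12 with Cnp loss and −0.12 with 5xFAD, against 0.00 over all genes in both. No such median is given for the other cell types, where 4 to 6 members passed and some of their fits rest on a genotype at 0 UMIs. The biological coefficient of variation was 0.466 in MOL, 0.207 in neurons, 0.292 in astrocytes and 0.297 in microglia.

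**Figure D5:**
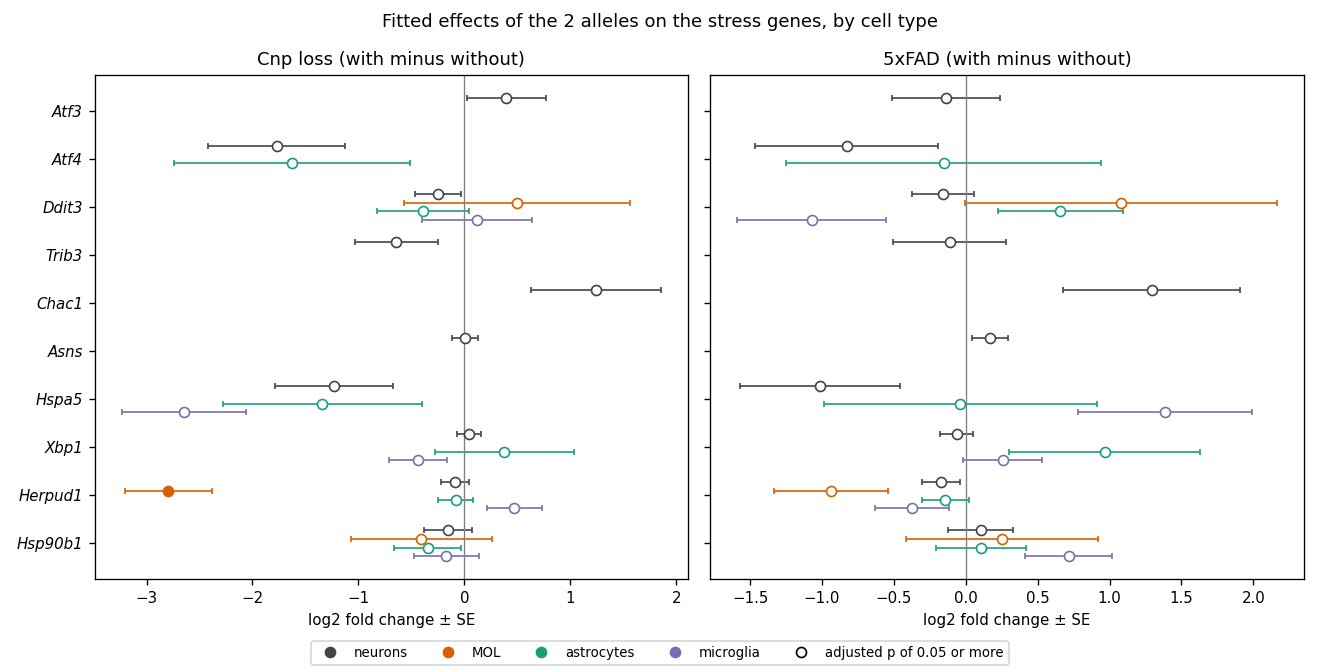
Log2 fold changes (x axis, bars are the SE) of the members that passed the filter, for Cnp loss (left) and 5xFAD (right), coloured by cell type, with fits left out where both libraries of a genotype were at 0 UMIs. The only filled point, with an adjusted p under 0.05, is Herpud1 in MOL with Cnp loss at −2.79.

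The wider pathways were followed through 5 lists of 159 other genes, of which edgeR called none in any of the 12 comparisons. The data held 46 of the 47 listed ATF4 and CHOP targets, 45 of the 46 ER chaperone and degradation genes, and the other lists in full. With Cnp loss in MOL, 93 of the 159 were tested, 1 was higher and 12 were lower at an unadjusted p under 0.05, and DESeq2 called 6. The 12 lower genes were 12.9% of those tested, where all 8761 genes were higher in 5.18% (454 genes) and lower in 6.83% (598 genes), and DESeq2 called 6.45% of the listed genes and 5.84% of all genes. The difference between listed and other genes was not tested. The 12 lower ones comprised 6 of 33 genes of ER chaperones and degradation (list median −0.61), 5 of 16 cytosolic heat shock genes (list median −0.73) and 1 of 24 ATF4 and CHOP targets (list median −0.07). None of 17 sensors and eIF2 genes was among them (list median 0.02). The 6 genes called by DESeq2 were named after their values were seen. Lower were Sars, the seryl-tRNA synthetase (−2.08), Hsph1 (−2.41), Chordc1 (−0.84) and Hsp90ab1 (−1.41) of the cytosolic chaperones, and Dnajc3 of the ER chaperones (−1.03). Sqstm1, the autophagy receptor p62 (0.53), was higher.

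In microglia with 5xFAD, 103 of the 159 genes were tested, of which 12 were higher and 0 lower at an unadjusted p under 0.05, while DESeq2 called 0 of them. This was 11.7% higher and 0% lower, where all 9621 genes were higher in 5.78% (556 genes) and lower in 3.6% (346 genes), a difference that was not tested, and the ribosomal protein genes and AD_DAM shares given beside Hsp90b1 separated in the same way. With Cnp loss in the same cells 5 were higher and 5 lower, against 732 and 407 of all genes. In neurons, 151 were tested, and DESeq2 called 3 with 5xFAD (1.99%), no more than the 2.32% of all genes that it called. Of these, named after their values were seen, Phgdh (−1.64) and Nupr1 (−1.64), both ATF4 targets, were lower and the immediate early gene Egr1 (0.90) was higher. For the interaction in neurons, the immediate early genes had a list median of −1.66, against −0.01 over all genes. The edgeR test called none of the 22 tested, and DESeq2 called 5 of them, against 58 of all 21584 genes (0.269%), namely Egr1 (−3.22), Jun (−2.09), Npas4 (−1.85), Junb (−1.63) and Btg2 (−1.09), again named after their values were seen. These genes rise with neuronal activity and with handling of tissue, and they were listed for that reason. Their neuronal sum was 123 CPM in Cnp-/- 5xFAD replicate 2, against 239 CPM in its replicate 1 and 183 to 258 CPM in libraries of the other genotypes. The part of that low library in the interaction was not tested. Over the other 4 lists, the same interaction had 1 gene higher and 1 lower at an unadjusted p under 0.05.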

How the data were processed

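Nuclei of 8 libraries were sequenced by the 10x Chromium 3′ method. The authors aligned reads with Cell Ranger 6.1.2 to mm10, removed ambient transcripts with CellBender, filtered nuclei and annotated cell types with Seurat. The deposited values are UMI counts per gene and nucleus, not normalized. Counting of introns and treatment of doublets are not given in the sources used here. The separate count table of microglia was not used beyond its subpopulation names.

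UMIs were summed per library and cell type. Genes were filtered with filterByExpr, scaled by TMM and tested by edgeR 4.0.16 (quasi-likelihood, 1 mean per genotype, two-sided, Benjamini-Hochberg threshold 0.05) in R 4.3.3. Differences between cell types came from 1 model of 32 profiles with the library as a block. Members removed by the filter were compared by exact permutation tests over libraries (70 relabellings). Levels are CPM without TMM scaling, intervals and floors (3 UMIs) cover counting error only, and SE is the fold change divided by the root of F. Models were checked on simulated data with the same spread set for every cell type and with profiles drawn independently. The check therefore did not cover the unequal spread of the real cell types or their shared libraries. Alternatives used DESeq2 1.42.0 and limma 3.58.1. Motifs were searched in RefSeq upstream windows. All 10 members are named, and listed genes by the largest change among those called. The members and lists were chosen with earlier results of these data known.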

Additional observations from a re-analysis of the deposited data

Results flagged for a closer look

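The response of Herpud1 to Cnp loss differed between cell types by a test of the difference itself. In the joint model of 4 cell types, the log2 fold change in MOL was lower than that in neurons by −2.72, than that in astrocytes by −2.73 and than that in microglia by −3.36 (edgeR's quasi-likelihood test, adjusted p = 0.00395, 0.00476 and 0.00192). All 3 values use the same 8 MOL profiles, which held 285 Herpud1 UMIs, of which 44 came from the 4 libraries with Cnp loss. Genotypes had 2 libraries each, too few to tell which of a pair is outlying. With single libraries left out the differences were −3.08 to −2.49 from neurons, −3.05 to −2.43 from astrocytes and −3.77 to −3.08 from microglia. The omissions under which calls were lost are named in the results above.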

How the results depend on the processing

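For Cnp loss in MOL, 1 member was called, and the count was 2 without a filter and by DESeq2 (Herpud1 and Hspa5), 0 with the replicate number as a block (Herpud1 −2.86, adjusted p = 0.0507 by edgeR), 0 in Cnp-/- against WT and in Cnp-/- 5xFAD against 5xFAD alone, and 0 to 1 with single libraries left out. It stayed 1 with the other alternatives: size factors of DESeq2, at least 1000 UMIs per nucleus, the same number of nuclei per library and newly formed oligodendrocytes added. Replicate numbers did not pair the libraries (correlations of deviations −0.20 to 0.19 over the 4 cell types), and the block changed no other call of a member. Hspa5 alone raised the count from 0 to 1 for Cnp loss in astrocytes without a filter, for Cnp loss in microglia without a filter, by DESeq2 and in Cnp-/- against WT, and for the interaction in microglia without a filter. The differences between MOL and neurons and between MOL and astrocytes had 1 call, 2 without a filter and by limma-voom with a random block (Herpud1 and Xbp1), and 0 to 1 with single libraries left out. The fold change of Herpud1 with Cnp loss changed sign among omissions of single libraries in neurons (−0.25 to 0.038) and astrocytes (−0.21 to 0.049), both near 0. Exact tests under 0.05 among filtered members numbered 1, and 0 to 2 with a library left out. The cell type with the highest share of nuclei with a UMI was that of the highest CPM for 6 members, and for 10 after thinning to 1000 UMIs. Over all genes, calls for Cnp loss in MOL were 67, against 544 without a filter, 512 by DESeq2, 23 with the block and 2 to 262 with a library left out. In microglia they were 87, against 423, 148, 29 and 0 to 154. Pooled folds with single libraries left out, chosen after seeing the data, are given beside those that moved by over 1.5 times. A library left alone in its genotype is assumed to vary like the others. The causes of these changes were not tested. Depth limits Hspa5, Xbp1 and Atf4 in MOL (63, 15 and 20 UMIs over all libraries) and Atf3 in microglia (74 UMIs).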
